A study of Mus musculus with 4 samples.

Results

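Collagens outside the banded fibrils were examined in mouse bone marrow cells treated with a compound that the labels call R. The set holds the 10 chains Col4a1, Col4a2, Col6a1, Col6a2, Col6a3, Col8a1, Col12a1, Col15a1, Col16a1 and Col18a1. They were chosen by name as network, beaded filament and associated collagens, each matched 1 gene by its GENCODE M21 symbol, and they are 10 of 54532 genes in the deposited table. The cells are labelled MSCs, were isolated by digesting whole bone marrow of CB6F1 mice and were grown in culture before treatment. For 2 of the 4 libraries the cells received R at 0.5 µM (the labels have "um"). For the other 2, the vehicle libraries, the cells received the solvent DMSO. All 4 sample titles carry the term aGVHD. The values correspond to between 16570419 and 18140519 recovered reads per library, totalled over genes with whole read numbers. Treatment time and mouse age are not stated in the labels. Since the labels also do not say whether replicates are separate cultures or mice, the p-values reflect the spread between these 4 libraries, part or all of which may be technical.

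Collagens are trimers of chains wound into a triple helix. Type IV collagen, made of Col4a1 and Col4a2 chains, forms the network of basement membranes, the thin sheets on which epithelia, vessels, fat and muscle cells rest. Type VI collagen assembles from its 3 chains into beaded microfilaments around stromal cells, and type VIII collagen into hexagonal lattices. Types XII and XVI lie along fibrils, and types XV and XVIII carry glycosaminoglycans at basement membranes, where the C-terminal end of the type XVIII chain can be released as endostatin. In bone marrow, stromal and perivascular cells and the vessel wall are known producers of these matrices.

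All 10 chains were higher in R. Each had both R libraries above both vehicle libraries, a pattern found in 22.7% of the 12176 genes tested. The ratio of mean FPKM, reads per gene divided by its length and by library size, ran from 1.36 for Col6a2 to 1.79 for Col4a1, with a median of 1.56. Fold changes were estimated on log2(FPKM + 1) values, a scale on which low genes change less than in FPKM itself, and their median was 0.61 for the 10 chains and 0.00 for all tested genes. None of the 10 passed limma's test at a Benjamini-Hochberg adjusted p under 0.05, so 0 of 10 were called higher where 0.345% of all tested genes were, and 0 were called lower where 1.37% were. At an unadjusted p under 0.05, 9 of the 10 chains were higher, against 7.16% of all tested genes. Fitting the same comparison to recovered reads with limma's voom called 3 of 10 higher (Col4a1, Col4a2 and Col16a1; background 0.718%). The chains were listed with earlier results of these data known, so these counts describe the list and are no test of it.

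The count of chains called changed when 1 library was left out, while the median log2 fold change of the chains stayed between 0.51 and 0.74. These counts rest on different estimates of the spread. Without an R library the vehicle pair gave the spread within groups, and without a vehicle library limma took it from its variance trend alone. The cause of the changes was not tested. Without R replicate 1 there were 6 chains called higher (Col4a1, Col4a2, Col6a1, Col6a3, Col8a1 and Col16a1; background 2.56%). Without R replicate 2 there were 5 (Col4a1, Col4a2, Col6a1, Col6a2 and Col16a1; background 3.6%), and there were 0 without vehicle replicate 1 (background 0.788%) or without vehicle replicate 2 (background 1.23%). Other settings called 3 chains with a mean of at least 5 FPKM required (Col4a1, Col4a2 and Col16a1; background 0.701%) and 1 on the TPM scale, where each library is divided by its FPKM sum (Col16a1; background 0.476%). They called 0 with a pseudocount of 0.1 FPKM (background 0.353%), with quantile normalization (0.509%), without a variance trend (0.37%) and without a filter on low values (0%).

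**Figure D1:**
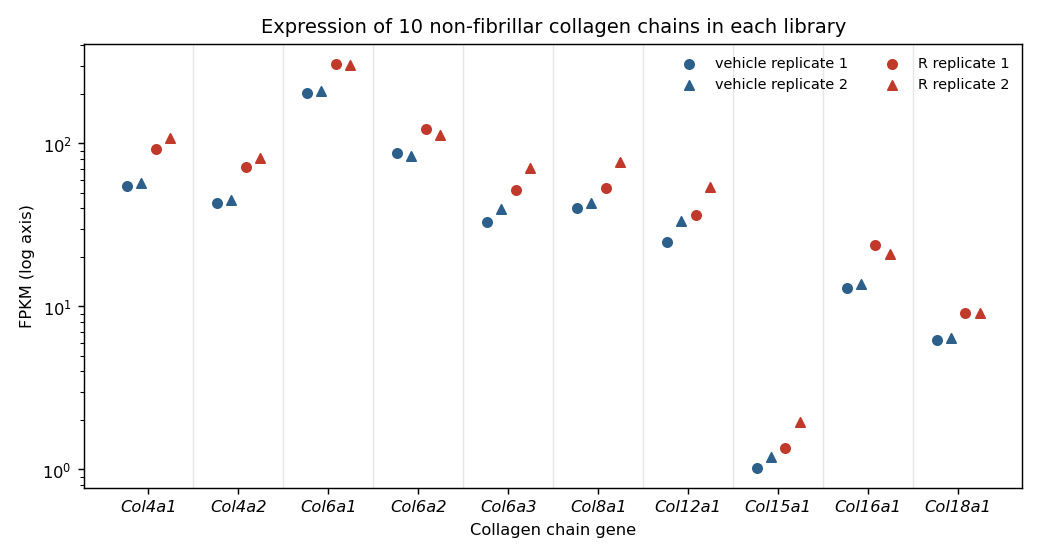
FPKM on a log axis for each of the 10 chains, with 1 point per library, vehicle in blue and R in red, circles for replicate 1 and triangles for replicate 2. For every chain both red points lie above both blue points, by the widest margin in Col4a1 (the lower R value 60.9% above the higher vehicle value) and the narrowest in Col12a1 (9.54%).

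The 2 type IV chains are encoded head to head at chr8:11198423-11312826 (Col4a1, ENSMUSG00000031502, minus strand) and chr8:11312805-11449287 (Col4a2, ENSMUSG00000031503, plus strand), and are known to share a bidirectional promoter. In RefSeq's GRCm38.p6 annotation their start sites lie at positions 11312826 and 11312805, so that their first exons overlap by 22 bases on opposite strands, and the windows from 250 bases before to 50 after each start share 78 bases. Each of these windows held 1 match to CCAAT, searched on both strands, and 0 matches to TATAAA. RefSeq's table gave 11 windows of 300 bases for 9 of the 10 chains, without Col12a1. CCAAT was found in 4 of these 11 windows and in 37.4% of all 32851 windows of this length, GGGCGG in 7 of 11 and 35.7%, and TATAAA in 0 of 11 and 13.6%. The only GGGCGG match of the Col4a1 window lies in the 78 shared bases and is also a match of the Col4a2 window. These 2 windows are therefore not separate counts of GGGCGG. The short stretches around the CCAAT matches are shown because these chains had the largest ratios and kept step with each other; they are at chr8:11312954-11312983 for Col4a1 and chr8:11312761-11312790 for Col4a2, each written 5′ to 3′ on the strand of its gene, with the match in capitals (ATTGG is CCAAT on the other strand).
Col4a1: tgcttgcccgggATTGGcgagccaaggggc
Col4a2: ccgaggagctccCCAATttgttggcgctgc

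Col4a1 was at 92.5 and 108 FPKM in R replicates 1 and 2 and at 54.9 and 57.5 FPKM in vehicle replicates 1 and 2. Col4a2 was at 71.3 and 82.0 FPKM in R and at 43.3 and 44.9 FPKM in vehicle. In both genes R replicate 2 was the highest library and the vehicle libraries lay close together. The ratio of means was 1.79 for Col4a1 (log2 fold change 0.82, SE 0.14, limma's Benjamini-Hochberg adjusted p = 0.0569) and 1.74 for Col4a2 (log2 fold change 0.78, SE 0.14, adjusted p = 0.0569). Each passed in 5 of 12 alternative settings without a replicate block, with limma's adjusted p from 0.016 to 0.445 for Col4a1 and from 0.0169 to 0.461 for Col4a2. Reads from opposite strands of the 22 shared bases cannot be told apart without strand, but these are 0.295% of the Col4a1 exons and 0.332% of those of Col4a2.

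The type IV protomer holds more Col4a1 than Col4a2 chain. The FPKM ratio of Col4a1 to Col4a2 was 1.30 and 1.32 in the R libraries and 1.27 and 1.28 in the vehicle libraries. The log2 ratio was 0.04 higher in R, with groups that did not overlap; the two-sided exact permutation test gave p = 0.333, the smallest that 2 against 2 libraries allow. Transcripts of the other type IV chains were scarce. Col4a5, on the X chromosome, was at 4.20 and 6.22 FPKM in R and 2.80 and 3.0 FPKM in vehicle (limma, Benjamini-Hochberg adjusted p = 0.174). Col4a3, Col4a4 and Col4a6 stayed under 0.1 FPKM in each library.

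Of the type VI chains, Col6a1 and Col6a2 were the most abundant of the 10, and Col6a3 came below both type IV chains and Col8a1. Col6a1 (ENSMUSG00000001119, chr10:76708792-76726168) and Col6a2 (ENSMUSG00000020241, chr10:76595762-76623630) are neighbours on the minus strand, and Col6a3 (ENSMUSG00000048126), the largest chain, lies at chr1:90765923-90843971. Col6a1 was at 307 and 304 FPKM in R and at 203 and 209 FPKM in vehicle, which made it rank 152 of the tested genes by mean FPKM. The replicates of each group lay close together and the groups stood far apart. Its log2 fold change was 0.57 (SE 0.15, limma's Benjamini-Hochberg adjusted p = 0.139).

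Col6a2 was at 122 and 112 FPKM in R and at 87.9 and 84.0 FPKM in vehicle, the smallest ratio of the 10 (1.36, log2 fold change 0.44). Col6a3 was at 51.7 and 70.4 FPKM in R and at 32.8 and 39.5 FPKM in vehicle, a ratio of 1.69 (log2 fold change 0.73). In Col6a3 replicate 2 was higher than replicate 1 in both groups, which was not so in Col6a2. By limma with Benjamini-Hochberg adjustment, Col6a2 had an adjusted p = 0.194 and Col6a3 an adjusted p = 0.148.

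Type VI protomers take equal parts of their chains, and the FPKM of the transcripts was unequal. The ratio of Col6a1 to Col6a2 was 2.51 and 2.71 in R and 2.30 and 2.49 in vehicle, with groups that did not overlap (log2 difference 0.12, two-sided exact permutation p = 0.333, the smallest possible). The ratio of Col6a3 to Col6a1 was 0.168 and 0.231 in R and 0.162 and 0.189 in vehicle, with overlapping groups (log2 difference 0.18, two-sided exact permutation p = 0.667), and without R replicate 2 the difference changed sign to -0.054. FPKM divides by the summed length of all annotated exons of a gene, 4.38 kb for Col6a1, 8.33 kb for Col6a2 and 11.96 kb for Col6a3, so these levels depend on the annotation. Among receptors and partners of type VI collagen, Cspg4 (the NG2 proteoglycan) was at 5.51 and 6.44 FPKM in R and 3.48 and 4.01 FPKM in vehicle and was not called (limma, Benjamini-Hochberg adjusted p = 0.132).

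Col8a1 (ENSMUSG00000068196, chr16:57624258-57754737) encodes a short-chain collagen of vessel walls and Descemet's membrane. It was at 53.5 and 76.5 FPKM in R and at 40.0 and 43.1 FPKM in vehicle, with R replicate 2 standing above the other libraries. The log2 fold change was 0.61 (SE 0.19, limma's Benjamini-Hochberg adjusted p = 0.213), and it was 0.36 without R replicate 2 and 0.87 without R replicate 1. Its partner chain Col8a2 (ENSMUSG00000056174, chromosome 4), named with the other non-fibrillar chains, rose. It reached the mean of 1 FPKM needed for the test only through its R libraries, which limits what its call shows. Col8a2 was at 3.72 and 3.63 FPKM in R (322 and 295 reads) and at 0.518 and 0.869 FPKM in vehicle (41 and 70 reads), a ratio of means of 5.30 (log2 fold change 1.47, SE 0.16, limma's Benjamini-Hochberg adjusted p = 0.0153). The Col8a1 to Col8a2 ratio, computed after these values were seen, was 14.4 and 21.1 in R and 77.3 and 49.6 in vehicle, so Col8a1 stayed the more abundant chain in each library. The bases before the annotated starts of both partners are shown because only Col8a2 of the 2 was called; they are chr16:57754738-57754987 for Col8a1 (minus strand, 250 bases) and chr4:126286544-126286792 for Col8a2 (plus strand, 249 bases), from RefSeq, GRCm38.p6, with each match to GGGCGG on either strand (a GC box, 4 in each stretch, 2 of them overlapping in Col8a2) in capitals.
Col8a1: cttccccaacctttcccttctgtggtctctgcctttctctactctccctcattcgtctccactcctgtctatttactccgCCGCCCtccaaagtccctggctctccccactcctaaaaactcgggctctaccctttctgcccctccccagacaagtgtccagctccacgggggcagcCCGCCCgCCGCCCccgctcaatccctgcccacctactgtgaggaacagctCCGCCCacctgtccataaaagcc
Col8a2: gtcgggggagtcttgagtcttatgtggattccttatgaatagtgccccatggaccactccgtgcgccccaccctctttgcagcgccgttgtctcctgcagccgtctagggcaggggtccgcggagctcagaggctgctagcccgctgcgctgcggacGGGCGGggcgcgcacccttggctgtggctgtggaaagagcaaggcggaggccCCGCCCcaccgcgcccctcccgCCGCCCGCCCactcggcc

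Types XII and XVI join the surface of fibrils or lie near them. Col12a1 (ENSMUSG00000032332, chr9:79598991-79718831), whose long chain links fibrils to their surroundings, was at 36.7 and 54.2 FPKM in R and at 24.8 and 33.5 FPKM in vehicle. Its groups came closest to touching, since R replicate 1 was only 9.54% above vehicle replicate 2. The log2 fold change was 0.61 (SE 0.23, limma's Benjamini-Hochberg adjusted p = 0.287). It was 0.34 with R replicate 2 left out and 0.40 with vehicle replicate 1 left out. Col16a1 (ENSMUSG00000040690, chr4:130047840-130099283) was at 23.9 and 20.9 FPKM in R and at 12.9 and 13.7 FPKM in vehicle. Here R replicate 1 was the highest library, the reverse of Col12a1, and the log2 fold change was 0.70 (SE 0.13, limma's Benjamini-Hochberg adjusted p = 0.0653). Of 12 alternative settings without a replicate block it passed in 5, with an adjusted p from 0.0249 to 0.447 in limma.

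Types XV and XVIII, the 2 collagens of the endostatin family, were the lowest. Col18a1 (ENSMUSG00000001435, chr10:77052178-77166548) was at 9.11 and 9.10 FPKM in R and at 6.27 and 6.44 FPKM in vehicle, the smallest spread within R of any of the 10. Its log2 fold change was 0.46 (SE 0.11, limma's Benjamini-Hochberg adjusted p = 0.13). Col15a1 (ENSMUSG00000028339, chr4:47208161-47313167) was at 1.35 and 1.95 FPKM in R and at 1.03 and 1.19 FPKM in vehicle, from 166, 224, 115 and 136 reads. Its ratio of means was 1.49, but counting error alone was 6.68 to 9.33% per library, and it was the only chain of the 10 whose 95% interval included 0 (log2 fold change 0.32, interval -0.11 to 0.75, limma's Benjamini-Hochberg adjusted p = 0.442). At this low level its fold change rose to 0.52 with a pseudocount of 0.1 FPKM in place of 1.

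**Figure D2:**
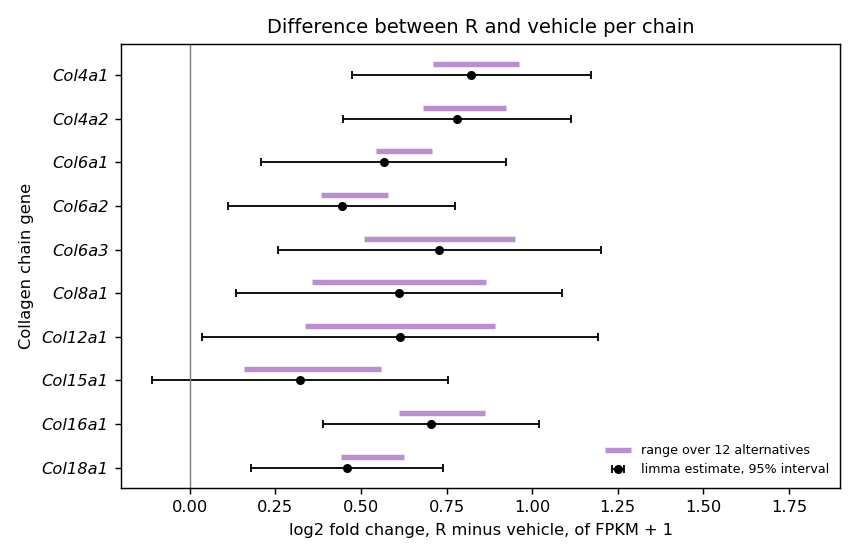
Log2 fold change of FPKM + 1 (x axis) for each of the 10 chains (y axis), with limma's estimate and 95% interval in black and the range of estimates over 12 alternative settings without a replicate block in purple. All estimates and all ranges lie above 0, and the interval of Col15a1 alone reaches below it.

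Ordered by vehicle level, Col6a1 was followed by Col6a2, Col4a1, Col4a2, Col8a1, Col6a3, Col12a1, Col16a1, Col18a1 and Col15a1. The vehicle values of Col6a3 and Col12a1 overlapped, and those of the other neighbours did not. The order of mean FPKM was the same in R, where Col4a2 overlapped with Col8a1, Col8a1 with Col6a3, and Col6a3 with Col12a1. Summed over the 10 chains, the level was 769 and 840.1 FPKM in R and 507 and 533 FPKM in vehicle, and Col6a1 made up 36.2 to 40.0% of it. The chains took 0.57 and 0.666% of recovered reads in R and 0.368 and 0.398% in vehicle. They had from 115 reads (Col15a1) to 25922 reads (Col6a1) per gene and library. Recovered reads were totalled over genes with whole read numbers only. The library size implied by the FPKM values was 1.06 and 1.09 times this total in R and 1.04 and 1.05 times in vehicle. Relative to that size the shares would be lower, most of all in R replicate 2.

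The spread between replicates was uneven among the chains. The exons of the 10 genes summed to 4.38 to 15.2 kb, against a median of 4.11 kb for tested genes. With all tested genes divided by length into 10 groups of equal size, the longest group had a median log2 ratio of R replicate 2 to R replicate 1 of 0.27, and of vehicle replicate 2 to vehicle replicate 1 of 0.12, where the shortest group had -0.32 and -0.12. Of the chains, 6 were higher in R replicate 2 than in R replicate 1 and 9 were higher in vehicle replicate 2 than in vehicle replicate 1. Across the 10 chains Spearman's rho between length and the log2 ratio of the R replicates was 0.49, a description over genes from the same libraries. The R against vehicle difference of all genes varied little with length, with medians of -0.05 in the shortest and 0.02 in the longest group. With the length trend of each library removed, the median log2 fold change of the 10 chains was 0.59 and 4 were called higher (Col4a1, Col4a2, Col6a1 and Col6a3; background 1.7%).

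**Figure D3:**
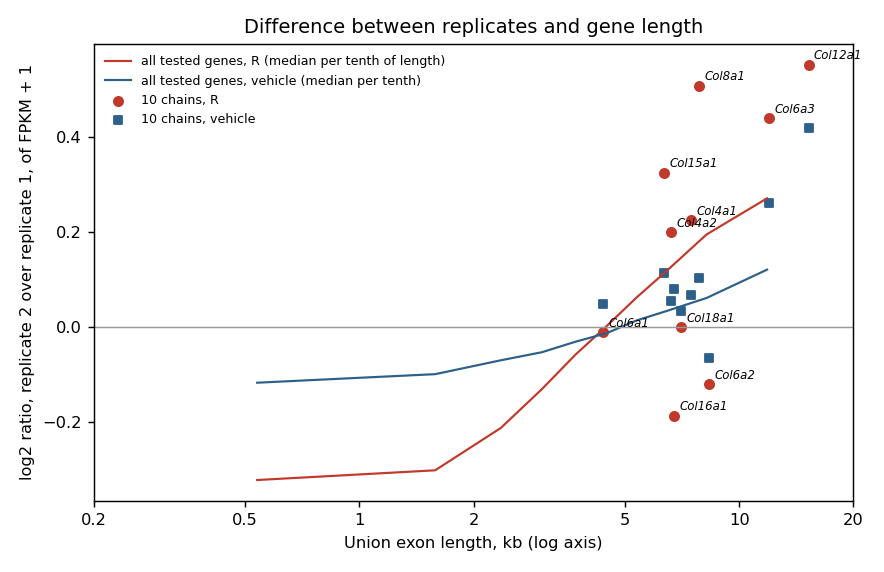
Log2 ratio of replicate 2 to replicate 1 (y axis) against summed exon length on a log axis (x axis), with points for the 10 chains and lines for the median of all tested genes per length group, R in red and vehicle in blue. The lines climb from -0.32 to 0.27 in R and from -0.12 to 0.12 in vehicle, and Col12a1, the longest chain, is highest in both groups.

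Cell type markers moved in the same libraries, and their part in the collagen values was not tested. In bulk samples fewer cells of a type and less RNA per cell cannot be told apart. The 14 macrophage markers summed to 12142 to 15831 FPKM in R and 20756 to 23197 FPKM in vehicle. Most of the sum was Lyz2, which was not called. Both R libraries lay below both vehicle libraries in 12 of 14, and Mrc1 and C1qc overlapped. Of all tested genes 25.2% lay below and 22.7% above in this way. Of the 14, 3 were called lower (Itgam, Fcgr1 and Ctss), where 1.37% of all tested genes were. The fall was uneven, with a median log2 fold change of -0.64 and a range from -1.90 for Fcgr1 to -0.13 for Adgre1. The 14 mesenchymal stromal markers summed to 1344 to 1385 FPKM in R and 1298 to 1381 FPKM in vehicle. Among them 5 lay above in R, 1 below and 8 overlapped. The 1 below was Ly6a, at 28.38 and 21.97 FPKM in R and 90.57 and 78.26 FPKM in vehicle. Ly6a was the only marker of this list called (log2 fold change -1.71, limma's Benjamini-Hochberg adjusted p = 0.0113). Of the defining markers Lepr and Thy1 were under 1 FPKM in each library. The 10 smooth muscle and pericyte markers summed to 1242 to 1678 FPKM in R and 1071 to 1150 FPKM in vehicle, and most of the sum was Acta2. Among them 8 of 10 lay above in R, Kcnj8 lay below and Tagln overlapped. Of the 9 tested, 0 were called. The 10 endothelial markers summed to 10.2 to 10.9 FPKM in R and 9.13 to 9.46 FPKM in vehicle, with 3 above in R, 3 below and 4 overlapping. Egfl7 averaged 2.67 ± 0.723 FPKM in R against 1.56 ± 0.363 FPKM in vehicle (SD over 2 libraries each) and was not called. The other 2 above in R were Tek and Cldn5, which did not pass the filter on low values. The 3 below were Pecam1, Kdr and Vwf, which did not pass the test or that filter, and Kdr was at most at 0.666 FPKM. Cdh5 was among the 4 that overlapped. Of 6 epithelial markers, Krt8 and Krt18 were listed at 0 in each library and Krt19 was at 7.51 to 9.94 FPKM in R and 4.90 to 5.50 FPKM in vehicle. The 6 adipocyte markers summed to 67.4 to 68.6 FPKM in R and 55.5 to 66.9 FPKM in vehicle, with 3 above in R and 3 overlapping. The 6 osteoblast markers summed to 26.7 to 28.8 FPKM in R and 29.8 to 32.2 FPKM in vehicle, with 2 above in R, 1 below and 3 overlapping; the one below was Ibsp, at 1.18 and 2.49 FPKM in R and 6.20 and 8.89 FPKM in vehicle. The 6 Schwann cell markers summed to 14.4 to 15.0 FPKM in R and 13.9 to 16.1 FPKM in vehicle, and the groups overlapped.

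Genes that make, assemble with or bind these collagens were read from the same fit, in 6 lists with 113 genes of which 73 were tested. Of these, 6 rose and 1 fell, where 0.345% of all tested genes rose and 1.37% fell. Of 23 other non-fibrillar chains 20 were not tested for their low level, and of the 3 tested Col8a2 rose. Col10a1, the type X collagen of hypertrophic cartilage and the most abundant of them, was at 6.17 and 7.84 FPKM in R and 3.53 and 3.65 FPKM in vehicle and was not called (limma, Benjamini-Hochberg adjusted p = 0.0676), although it passed in 3 of 12 alternative settings without a replicate block, with an adjusted p from 0.0228 to 0.25. Col8a2, like Lama1 below, reached the mean of 1 FPKM needed for the test only through its R libraries. In 8 of 9 tested fibrillar chains both R libraries lay above both vehicle libraries (22.7% of all tested genes). The median log2 fold change of the 9 was 0.56, and 0 fell and 2 rose. They were Col2a1, the cartilage collagen, from 26.6 and 24.3 FPKM in vehicle to 57.8 and 51.3 FPKM in R, and Col5a3, from 2.96 and 2.69 to 6.29 and 5.71 FPKM. Leaving out vehicle replicate 2 ended both calls, with limma's Benjamini-Hochberg adjusted p = 0.0532 for Col2a1 and adjusted p = 0.0796 for Col5a3. Col1a1, the main fibrillar chain, was chosen for its role after its values were seen. It was at 852 and 795 FPKM in R and 532 and 526 FPKM in vehicle. Col3a1 was at 266 and 299 FPKM in R and 257 and 266 FPKM in vehicle. Its groups nearly touched, with R replicate 1 only 0.03% above vehicle replicate 2. Neither chain was called (limma, Benjamini-Hochberg adjusted p = 0.156 for Col1a1 and adjusted p = 0.789 for Col3a1).

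Of 19 tested laminins and other basement membrane proteins, 1 rose and 0 fell, with a median log2 fold change of 0.40. That gene, Lama1, reached the mean of 1 FPKM needed for the test only through its R libraries. Lama1, a laminin alpha chain of early basement membranes, rose from 0.668 and 0.731 FPKM in vehicle to 2.39 and 2.75 FPKM in R (limma, Benjamini-Hochberg adjusted p = 0.0335), and its call was lost on the TPM scale (adjusted p = 0.0541). Chosen for their roles after their values were seen, Hspg2 (perlecan) was at 54.5 and 69.9 FPKM in R and 32.2 and 37.8 FPKM in vehicle, Lamb2 at 46.5 and 48.7 against 28.1 and 28.2 FPKM, and Nid1 (nidogen, which links laminin to type IV collagen) at 35.9 and 54.8 against 26.9 and 34.0 FPKM. None of these 3 was called by limma after Benjamini-Hochberg adjustment, with an adjusted p = 0.0948 for Hspg2, adjusted p = 0.0516 for Lamb2 and adjusted p = 0.338 for Nid1.

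Of 13 tested receptors, 2 rose and 0 fell, with a median log2 fold change of 0.37. Ddr1, a receptor tyrosine kinase that binds collagens, type IV among them, rose from 14.5 and 14.3 FPKM in vehicle to 29.4 and 31.0 FPKM in R (limma, Benjamini-Hochberg adjusted p = 0.0165), and the groups stood well apart. Itga3, a laminin-binding integrin chain, rose from 2.92 and 2.95 FPKM to 5.64 and 6.31 FPKM (limma, Benjamini-Hochberg adjusted p = 0.045). By the same limma test Itga3 was not called without vehicle replicate 1 (adjusted p = 0.114), without vehicle replicate 2 (adjusted p = 0.0736) or on TPM values (adjusted p = 0.0691).

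Of 24 tested genes of chain folding and modification, 0 rose and 0 fell in limma after Benjamini-Hochberg adjustment, with a median log2 fold change of 0.19. At an unadjusted p under 0.05, 5 were higher and 1 lower (8.83% of all tested genes were lower), and voom on recovered reads called 0 higher and 0 lower of 23. The 2 with the smallest p were P4ha3, a prolyl hydroxylase subunit, at 20.1 and 20.2 FPKM in R and 15.0 and 12.9 FPKM in vehicle, and P3h4, a member of the prolyl 3-hydroxylase family, at 72.9 and 61.2 against 47.4 and 44.5 FPKM. Of 5 tested partners of type VI collagen 0 rose and 1 fell. Dcn, decorin, a small proteoglycan that binds fibrils and type VI collagen, fell from 36.7 and 34.3 FPKM in vehicle to 16.5 and 17.8 FPKM in R (log2 fold change -1.01, limma's Benjamini-Hochberg adjusted p = 0.0203). By the same limma test Dcn was not called on TPM values (adjusted p = 0.058) or without vehicle replicate 1 (adjusted p = 0.0566).

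**Figure D4:**
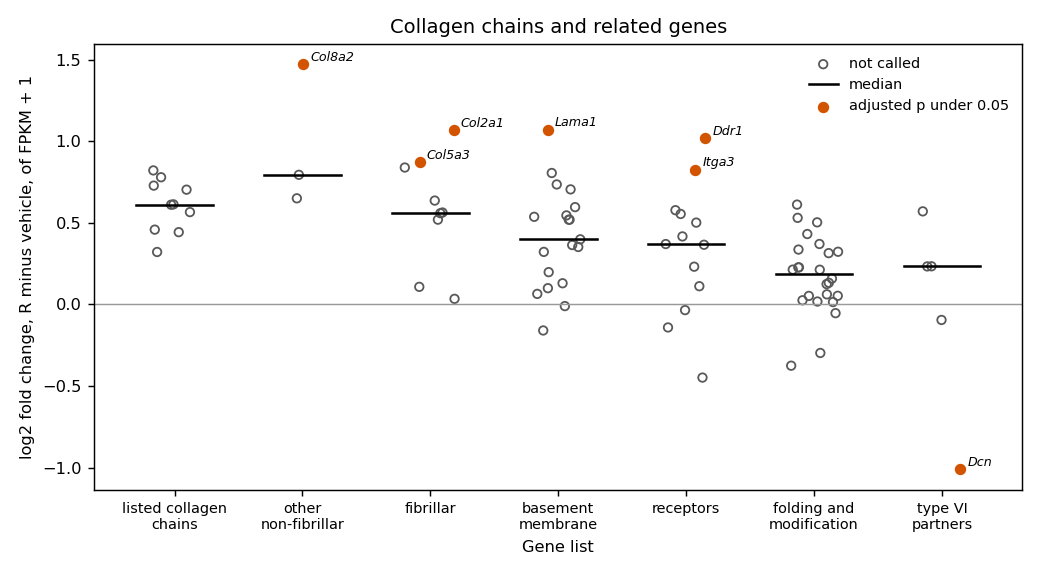
Log2 fold change of FPKM + 1, R minus vehicle (y axis), of each tested gene in the list of 10 chains and in 6 related lists (x axis); filled points were called at an adjusted p under 0.05, open points were not, and bars are medians. The 10 chains lie between 0.32 and 0.82 with a median of 0.61, and Dcn is the only called gene below 0.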

How the data were processed

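RNA sequencing values of 4 libraries were analysed, 2 per group, with groups and replicate numbers taken from the sample titles. The authors deposited 1 FPKM value per gene and library, per the file headers; 10 unnamed columns are empty. GRCm38, mm10 and edgeR 3.18.1 are named per the submitters' processing notes, in roles not stated; the aligner, counting tool and annotation are not stated there. Read numbers were recovered by multiplying each FPKM by the summed exon length of its gene (GENCODE M21), and were whole, within 0.02, for 96.3 to 96.4% of values above 0, and for all 10 chains in all 4 libraries. The summed FPKM of a library was 287360 to 345709.

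Of 54532 identifiers, 54495 matched GENCODE M21. The 12176 genes whose mean reached 1 FPKM were tested on log2(FPKM + 1) with limma 3.58.1 under R 4.3.3, without further terms, with a variance trend (2 residual and 3.83 prior degrees of freedom) and Benjamini-Hochberg adjustment over all tested genes at 0.05. Ratios of partner chains were compared with an exact permutation test. Intervals are 95% and counting errors cover reads only. The script was tested on simulated data.

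The members and lists were chosen with earlier results of these data known. Named genes were all 10 chains, every called gene of a related list or else its 2 members with the smallest p, and the 2 most abundant other non-fibrillar chains; further names were chosen after their values were seen. Alternatives were another pseudocount, 2 other filters, TPM, quantile normalization, voom on recovered reads, removal of a length trend, no variance trend, leaving out each library and a replicate block.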

Additional observations from a re-analysis of the deposited data

How the results depend on the processing

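All 10 chains kept a log2 fold change above 0 in every alternative in which they were tested; of 119 such values without a replicate block, 22 passed limma's threshold. Dividing each library by its FPKM sum (TPM) moved the median of all genes to 0.13 (log2 fold change) and that of the 10 chains to 0.76, which is 0.63 above all genes, where the deposited scale gave 0.61. The count of chains called higher, 0 as reported, was 3 with a mean of at least 5 FPKM, 1 on the TPM scale, 3 with voom, 4 with the length trend removed and 0 to 6 when 1 library was left out. The median of the chains was 0.51 to 0.74 when 1 library was left out. Genes called higher and lower, 42 and 167 as reported, were 0 and 0 of 24958 without a filter (limma; 2767 at an unadjusted p under 0.05), where the calls of all named genes were lost, 83 and 235 with voom, 207 and 343 with the length trend removed, and 96 to 438 and 193 to 665 when 1 library was left out. Related genes called higher, 6 as reported, were 0 without a filter, 3 with a mean of at least 5 FPKM, 11 with voom, 15 with the length trend removed and 4 to 23 when 1 library was left out. Those called lower, 1 as reported, were 0 without a filter, 0 on the TPM scale and 0 to 2 when 1 library was left out. When 1 library was left out, the R minus vehicle difference in the log2 ratio of Col6a3 to Col6a1 was -0.054 to 0.41. In these fits the lone library of a group is assumed to vary like the other group, and without either vehicle library limma took each gene's spread from the trend alone. The cause of these shifts was not tested.

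The labels give both groups replicates 1 and 2, without saying that a number marks a shared culture or animal. Deviations from the group means correlated at 0.35 across genes between the libraries numbered 1. With a replicate block, 8 chains were called higher (all but Col6a2 and Col15a1), with 891 genes (7.32%) higher and 1009 lower in all and 28 related genes higher and 2 lower. With the block and the length trend removed together, these were 8 chains, 671 and 721 genes, and 29 related genes higher. In the fit with the block alone, limma took each gene's spread from the trend alone. Its calls therefore do not reflect the spread of each chain's own values. Depth is a limit for Col15a1, which had the fewest reads of the listed chains, at 115 to 224 per library.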

Other observations

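Of the 20 other non-fibrillar chains that stayed under a mean of 1 FPKM and were not tested, 3 had both R libraries above both vehicle libraries (Col7a1, Col9a1 and Col9a2). Another 5 had them below (Col4a4, Col6a4, Col6a5, Col14a1 and Col20a1) and 12 overlapped. Of all tested genes 22.7% lay above and 25.2% below in this way. Some of these patterns rest on few reads. Col9a1 had 1 and 1 reads in R and 0 and 0 in vehicle, and Col4a4 had 8 and 5 against 9 and 11 reads. The values of the following were chosen to be shown after they were seen. Col7a1, the anchoring fibril collagen that ties basement membranes to the stroma beneath, was at 0.499 and 0.392 FPKM in R (99 and 73 reads) and at 0.22 and 0.222 FPKM in vehicle (40 and 41 reads). Col9a2, a chain of the cartilage collagen type IX that decorates type II fibrils, was at 0.435 and 0.357 FPKM in R (26 and 20 reads) and at 0.0183 and 0.09 FPKM in vehicle (1 and 5 reads). Col6a4, a further type VI chain, lay the other way, at 0.0425 and 0.0648 FPKM in R (7 and 10 reads) and at 0.153 and 0.19 FPKM in vehicle (23 and 29 reads). Of the 20, 12 were under 0.1 FPKM in each library. Serpinh1, the collagen-specific chaperone HSP47, was at 625 and 543 FPKM in R and 391 and 371 FPKM in vehicle, with groups that did not overlap, and was not called by limma (Benjamini-Hochberg adjusted p = 0.169).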
